A study of Mus musculus with 16 samples.

Results

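miR-142-3p and miR-142-5p are the 2 mature microRNAs (miRNAs) cut from the hairpin of the Mir142 gene, and they were followed here in mouse carotid arteries after wire injury. They were chosen by name, as the array design spells them (mmu-miR-142-3p and mmu-miR-142-5p), and make up 2 of the 611 mouse miRNAs with a probe on the array. Both were among the 321 miRNAs that could be tested, and both were well above background on all 16 arrays. The mice were female, ApoE-/- on the C57BL/6 background and fed a western-type diet. Loss of apolipoprotein E throughout the body leaves them prone to atherosclerosis, and the uninjured controls carry the same deletion. There were 3 arrays of uninjured carotid arteries, and arrays of wire-injured carotid arteries at day 1 (3 arrays), day 7 (3), day 14 (3) and day 28 (4). The labels give an age of 8 weeks for the day 1 arrays and of 6 to 8 weeks for all other groups, the uninjured one included. They do not say for how long the diet was fed, whether an uninjured artery came from a mouse that was injured elsewhere, or whether RNA of several arteries was pooled. Below, an artery stands for the RNA on 1 array.

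miR-142 is known as a miRNA of the blood cell lineages, made in lymphoid, myeloid and megakaryocytic cells and little in other tissues, and both of its strands are loaded into Argonaute and repress targets. Mice without it have defects in several leukocyte classes and in platelets. A wire drawn through a carotid artery strips the endothelium. Platelets and leukocytes then settle on the wall before a neointima, an inner layer rich in smooth muscle cells and macrophages, forms.

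The mature sequences of both strands are shown because the strands come from 1 hairpin but have different seeds (bases 2 to 8, in capitals), the part of a miRNA that pairs with its targets. The sequences are those of RefSeq for build GRCm38.p6, where the strands are named miR-142a-3p and miR-142a-5p.
miR-142-5p: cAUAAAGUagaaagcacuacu
miR-142-3p: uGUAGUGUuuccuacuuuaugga
miR-142-5p lies at chr11:87756867-87756887 and miR-142-3p at chr11:87756903-87756925, both on the plus strand. In the hairpin at chr11:87756864-87756927, with both mature strands in capitals, 15 bases lie between them.
Mir142 hairpin: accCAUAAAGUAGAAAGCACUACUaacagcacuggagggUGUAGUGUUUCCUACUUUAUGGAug
The RefSeq annotation places no protein-coding gene over the hairpin. The nearest protein-coding genes on either side are Supt4a and Tspoap1, and the only overlapping gene is Mir142b. Each of the 2 seeds occurred in 1 of the 1738 mouse mature miRNAs in the RefSeq table.

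The 16 arrays lay on 2 slides, and the slide does not cut evenly through the groups. Slide 1 held all day 1 and day 7 arrays and day 28 replicates 1 and 2. Slide 2 held all uninjured and day 14 arrays and day 28 replicates 3 and 4. Day 1 and day 7 therefore shared no slide with the uninjured arteries, and only the day 28 arrays tie the slides together. Before scaling, the 75th percentile of the signal ran from 401 to 1432 intensity units over the arrays. Between 251 and 335 miRNAs were well above background on an array, with 251 to 292 of them on the uninjured arrays. Signals below are scaled log2 signals: the intensity of the brightest probe, divided by that 75th percentile, as log2. A level of one strand cannot be set against a level of the other, because their probes differ.

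Day 28 replicate 2 lay above the other 3 day 28 arrays in both strands and is given separately throughout. Its gap to the next array was 0.69 of the range of the 4 arrays in miR-142-3p and 0.68 in miR-142-5p, which is under the limit for an outlier in a group of 4 (Dixon's test). Its miR-142-3p signal was 1.62 and its miR-142-5p signal 1.51 above the mean of the other 3 on the log2 scale. These were the 9th and 11th highest such differences among the 321 tested miRNAs. The highest were those of miR-200b (4.34), miR-141 (4.17) and miR-200c (3.54), members of a family known from epithelial cells. The lymphocyte miRNA miR-150 stood 1.92 above, but the other day 28 arrays lay at or near the floor of -5.79 in it (-5.79 to -5.12). These 4 were named after their values were seen. The lymphocyte miRNA miR-342-3p was at 2.12, against 1.74 to 1.98 on the others. miR-155 (-0.37 against -1.98 to -0.88) and miR-146a (-0.47 against -1.04 to -0.71) were also above. miR-223 (2.90) and miR-511 (-4.91) lay within the range of the others. Of the tested miRNAs, 105 (32.7%) lay above all 3 other day 28 arrays on this array. What part the sources of these miRNAs had in its miR-142 level was not tested.

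The signal behind each strand was strong enough to be measured in every artery. Each strand had 2 probes of 10 spots each, and 58 of the 640 spots of these probes over all arrays were marked as outliers and dropped. No spot of them was saturated (0 of 640). All 10 spots of the brighter probe of each strand were well above background on every array. The coefficient of variation over the unmarked spots of that probe had a median over arrays of 5.01% for miR-142-3p and 5.63% for miR-142-5p. The processed intensity of miR-142-3p was 462 to 3150 units in the 13 injured arteries and 109 to 158 units in the 3 uninjured ones. That of miR-142-5p was 111 to 741 units in injured arteries and 33.7 to 49.8 units in uninjured ones. Before scaling too, no injured array overlapped an uninjured array in either strand. The uninjured arrays tended to be dimmer as a whole, with a 75th percentile of 401 to 624 units, against 484 to 1432 on injured arrays. The share of all tested miRNAs with all 13 injured arteries apart from the 3 uninjured ones was not counted, before or after scaling. The group of a single day lay apart from the uninjured one, in either direction, in 31.8% to 61.4% of them after scaling.

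The 2 probes of a strand ran together over the arrays. The brighter probe of miR-142-3p lay above its dimmer one by 1.93 ± 0.11 on the log2 scale (SD, n = 16), and those of miR-142-5p differed by 0.02 ± 0.05. The dimmer miR-142-3p probe gave differences from uninjured arteries of 2.86, 2.44, 1.86 and 2.14 at days 1, 7, 14 and 28, against 3.07, 2.75, 2.02 and 2.29 with the brighter one. On 1 or more of the uninjured arrays only 8 of that dimmer probe's 10 spots were well above background. The dimmer miR-142-5p probe gave 2.63, 2.19, 1.68 and 1.93, against 2.68, 2.27, 1.73 and 2.00.

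**Figure D1:**
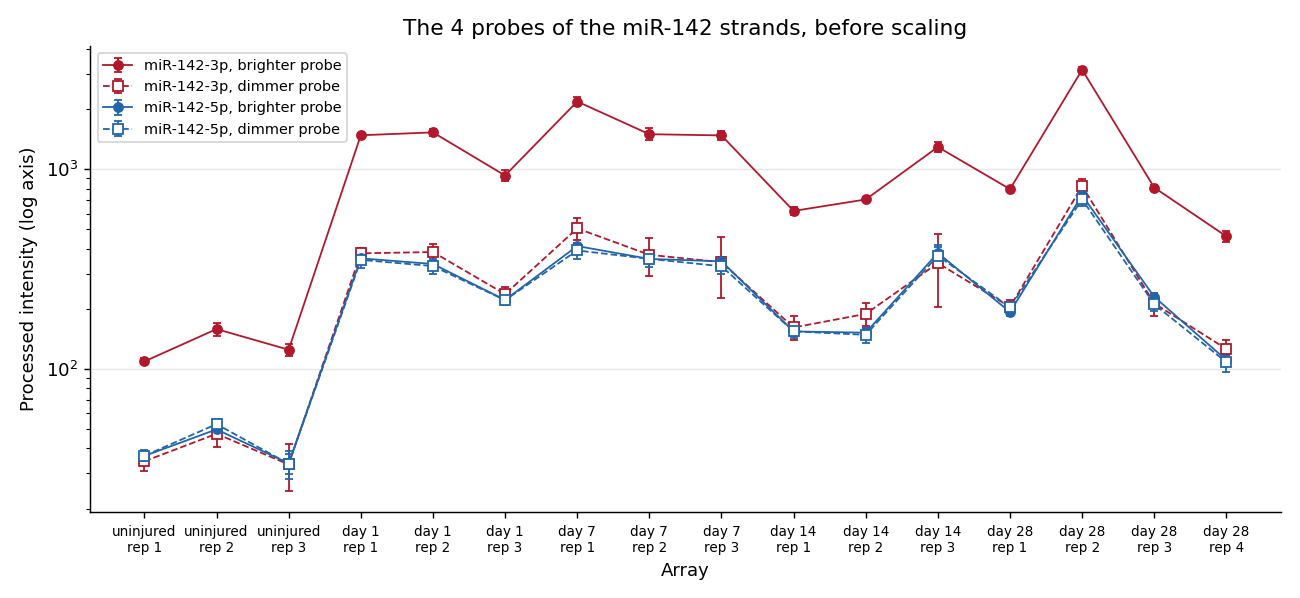
Processed intensity (log axis, before scaling) of the 2 probes of each miR-142 strand on each of the 16 arrays, with points at the mean and bars at the SD over unmarked spots. All 4 probes were dim on the 3 uninjured arrays, and the brighter miR-142-3p probe reached its highest intensity, 3150 units, on day 28 replicate 2.

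Both strands rose after injury and remained above the uninjured level at day 28. miR-142-3p, the strand with the seed GUAGUGU, had scaled log2 signals of -1.88, -1.76 and -2.32 in uninjured arteries. It stood at 1.29, 1.01 and 0.94 at day 1, at 0.85, 0.88 and 0.55 at day 7, and at 0.26, -0.02 and -0.15 at day 14. At day 28 its signals were 0.26, 1.52, -0.27 and -0.30, in the order of the replicates. All 13 injured arteries lay above all 3 uninjured ones, a split whose share among all tested miRNAs was not counted. The lowest injured value (-0.30) was that of day 28 replicate 4. The groups were close within themselves at days 1, 7 and 14 (SD 0.18 to 0.21). At day 28 the SD was 0.85, and 0.31 without replicate 2, which was the highest of all 16 arrays. Of the other day 28 arrays, replicate 1 lay on slide 1 (0.26) and replicates 3 and 4 on slide 2 (-0.27 and -0.30).

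miR-142-5p, with the seed AUAAAGU, was also lowest in the uninjured arteries. Its signals were -3.45, -3.43 and -4.21 in uninjured arteries. They were -0.76, -1.18 and -1.13 at day 1, -1.56, -1.20 and -1.54 at day 7, and -1.75, -2.24 and -1.91 at day 14. At day 28 they were -1.79, -0.57, -2.09 and -2.35. Again no injured array fell among the uninjured ones, a split not counted over all tested miRNAs. Replicate 2 at day 28 was the highest array of the series. In whole arteries, fewer cells of a type and less RNA per cell cannot be told apart.

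**Figure D2:**
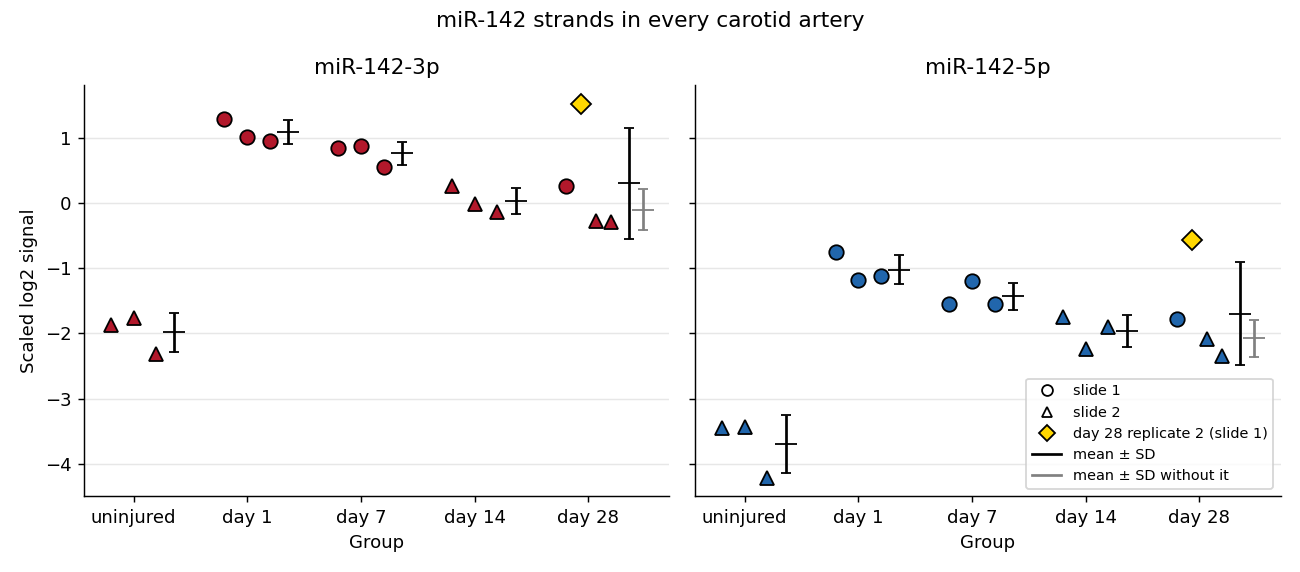
Scaled log2 signal of miR-142-3p (left) and miR-142-5p (right) in each artery, by group, with circles for slide 1, triangles for slide 2 and a diamond for day 28 replicate 2. The bars are the mean ± SD of each group, in grey without that array. All injured arteries sit above all uninjured ones (the share of all tested miRNAs with this split was not counted). The day 28 array shown as a diamond is the highest in both panels.

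Each day was set against the uninjured arteries to ask how far injury moved the 2 strands. At day 1 miR-142-3p averaged 1.08 ± 0.18 and in uninjured arteries -1.99 ± 0.29 (SD, n = 3 each), a rise of 8.38-fold (log2 3.07 ± 0.37 SE, limma adjusted p = 4.73e-05). miR-142-5p averaged -1.02 ± 0.23 at day 1 and -3.70 ± 0.44 in uninjured arteries (SD, n = 3 each), 6.39-fold higher (log2 2.68 ± 0.37 SE, limma adjusted p = 0.000156). Both strands were thus called, where 19.6% of all tested miRNAs were called higher at day 1 and 47% had groups that did not overlap. Among the 321 differences of that day, miR-142-3p ranked 2 and miR-142-5p 5 from the highest, and 26 and 37 with slide as a block. At days 7, 14 and 28 miR-142-3p ranked 6, 11 and 7, and miR-142-5p 11, 16 and 8. With slide as a block these ranks were 23, 11 and 11 for miR-142-3p, and 39, 16 and 15 for miR-142-5p.

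At day 7 miR-142-3p averaged 0.76 ± 0.18 (SD, n = 3), 6.71-fold above uninjured arteries (log2 2.75 ± 0.37 SE, limma adjusted p = 4.68e-05). miR-142-5p averaged -1.43 ± 0.20 (SD, n = 3) and was 4.81-fold higher (log2 2.27 ± 0.37 SE, limma adjusted p = 0.000242). Both were called, against 27.4% of all tested miRNAs called higher, and 61.4% had groups apart.

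At day 14 both strands were again clear of the uninjured arteries. miR-142-3p averaged 0.03 ± 0.21 (SD, n = 3), 4.04-fold above uninjured arteries (log2 2.02 ± 0.37 SE, limma adjusted p = 0.000825). miR-142-5p averaged -1.97 ± 0.25 (SD, n = 3) and was 3.32-fold higher (log2 1.73 ± 0.37 SE, limma adjusted p = 0.00253). Both were called, against 20.2% of all tested miRNAs called higher, and 50.8% had groups apart. These 2 groups shared slide 2, so the size of the difference is by construction the same with slide as a block. Both strands remained called in that fit (21.5% of all tested miRNAs called higher).

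At day 28 miR-142-3p averaged 0.30 ± 0.85 (SD, n = 4), 4.89-fold above uninjured arteries (log2 2.29 ± 0.35 SE, limma adjusted p = 0.000317). miR-142-5p averaged -1.70 ± 0.79 (SD, n = 4) and was 4.00-fold higher (log2 2.00 ± 0.35 SE, limma adjusted p = 0.00102). Both were called, against 16.8% of all tested miRNAs called higher, and 31.8% had groups apart. Without replicate 2 the day 28 means were -0.10 ± 0.31 for miR-142-3p and -2.08 ± 0.28 for miR-142-5p (SD, n = 3). The rises were then 3.69-fold (log2 1.88 ± 0.20 SE, limma adjusted p = 2.02e-05) and 3.08-fold (log2 1.62 ± 0.23 SE, limma adjusted p = 0.000295). Within slide 2 alone, which leaves out replicates 1 and 2, the day 28 differences were 1.70 for miR-142-3p and 1.48 for miR-142-5p. With slide as a block, the fit of all arrays gives these sizes by construction, as its slide step comes from day 28 alone. It called both strands, with 13.4% of tested miRNAs called higher. Without replicate 2 in the fit, both strands were called at all 4 days, and 20.9%, 27.7%, 21.2% and 15.9% of tested miRNAs were called higher at days 1, 7, 14 and 28. Over the 4 days together an F test in the fit of all 16 arrays called both strands (limma adjusted p = 1e-04 for miR-142-3p and 0.000338 for miR-142-5p), as it did 61.1% of the tested miRNAs.

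The slide block lowered the rises at days 1, 7 and 28 and left that at day 14 as it was. At day 28 the difference was 1.70 with the block and 2.29 without it for miR-142-3p, and 1.48 and 2.00 for miR-142-5p. With slide as a block, the day 1 difference was 1.89 for miR-142-3p (limma adjusted p = 0.0154) and 1.63 for miR-142-5p (limma adjusted p = 0.0513), so that the call for miR-142-5p was lost. At day 7 the blocked differences were 1.57 for miR-142-3p (limma adjusted p = 0.0153) and 1.22 for miR-142-5p (limma adjusted p = 0.0758), and the miR-142-5p call was lost again. The background fell as well, to 7.48% of tested miRNAs called higher at day 1 and 16.5% at day 7. The block takes the step between slides from the day 28 arrays alone, where slide 1 averaged 0.89 and slide 2 -0.28 for miR-142-3p (n = 2 each), and slide 1 includes replicate 2. In a fit added after the data had been seen, with slide as a block and without that array, the day 1 differences were 2.52 and 2.24 for miR-142-3p and miR-142-5p, and those at day 7 were 2.20 and 1.83. All 4 were called (limma adjusted p = 0.00101, 0.00608, 0.00071 and 0.0084), with 7.48% of tested miRNAs called higher at day 1 and 19% at day 7. No day 1 or day 7 array shares a slide with an uninjured one, so for these days no within-slide value can be had.

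**Figure D3:**
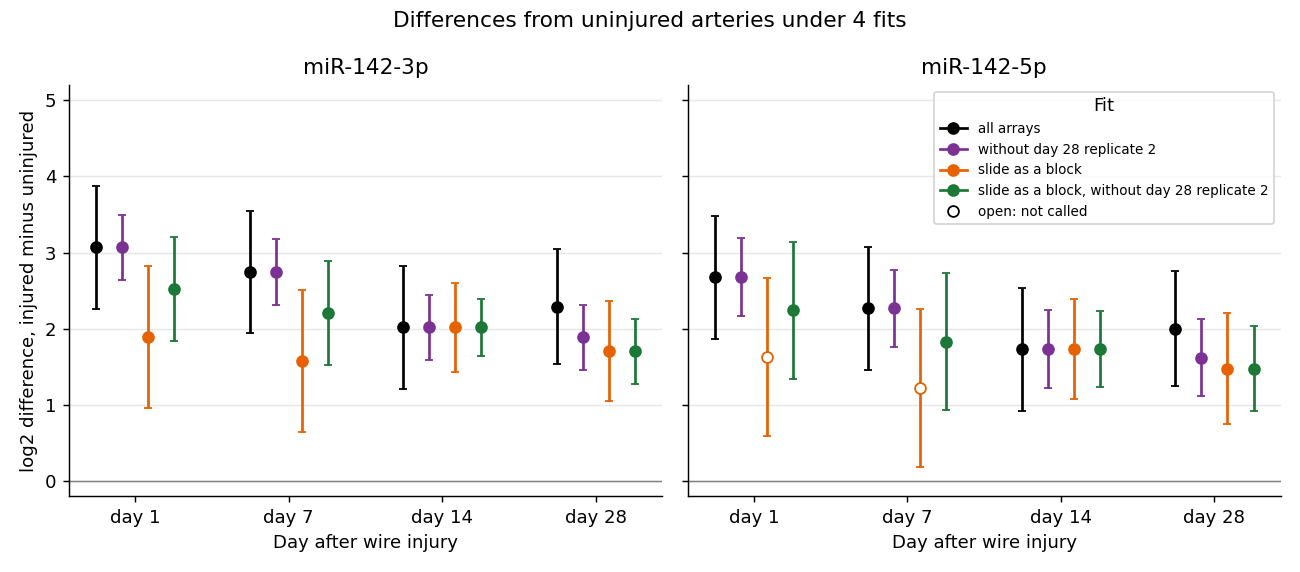
Difference of each day from uninjured arteries in log2, with 95% confidence intervals, for miR-142-3p (left) and miR-142-5p (right) under 4 fits. Filled points were called at an adjusted p under 0.05. All differences lie above 0, and the open points are miR-142-5p at days 1 and 7 with slide as a block, at 1.63 and 1.22.

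The strands were also set against the median of all tested miRNAs, which moves with the scaling. Most of the scalings shift all miRNAs of an array alike, so a difference from that median is nearly fixed by construction, and its narrow range is no sign of stability. The median difference of all tested miRNAs from uninjured arteries was 0.24, 0.003, 0 and 0.03 at days 1, 7, 14 and 28. Over the 5 scalings tried the day 1 median ran from -0.34 to 0.43. For day 7 it ran from -0.13 to 0.86, for day 14 from -0.23 to 0.52 and for day 28 from -0.20 to 0.63. Relative to it, miR-142-3p stood higher by 2.74 to 2.89 (day 1), 2.51 to 2.85 (day 7), 1.81 to 2.16 (day 14) and 2.12 to 2.30 (day 28). miR-142-5p stood 2.35 to 2.49, 2.15 to 2.37, 1.56 to 1.87 and 1.81 to 2.01 above it at those days. The calls of all tested miRNAs were 63 higher and 41 lower at day 1, and turned to 17 and 95 with the 75th percentile over all mouse probes, 17 and 103 with the median, 30 and 71 with quantiles, and 34 and 2 without scaling. At day 7 they were 88 higher and 72 lower, and 122 and 9 without scaling. At day 14 they were 65 and 61, against 52 and 76 with the median and 68 and 4 without scaling. At day 28 they were 54 and 30, against 30 and 41 with the median and 60 and 1 without scaling.

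The days were then compared with each other, to ask whether the rise changed with time. By mean level the order of both strands was day 1, day 7, day 28, day 14 and uninjured, from high to low. Of the 6 pairs of days, 4 were planned and 2 (day 14 against day 1, day 28 against day 7) were added after the data had been seen. None of the 4 planned pairs was called for either strand (0 of 8 limma tests, of which 1 had an unadjusted p under 0.05). Over all tested miRNAs, 34.3% were called in either direction for day 28 against day 1, 43.3% for day 7 against day 1, 10.3% for day 14 against day 7 and 15.3% for day 28 against day 14. Against day 1, day 7 was lower in miR-142-3p by a log2 difference of -0.32 (95% interval -1.13 to 0.48, limma adjusted p = 0.497) and in miR-142-5p by -0.41 (-1.22 to 0.40, limma adjusted p = 0.384). The sign of both turned with 3 of the scalings, up to 0.40 and 0.31 without scaling.

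Day 14 stood below day 7 by -0.73 in miR-142-3p (95% interval -1.53 to 0.07, limma adjusted p = 0.238) and by -0.53 in miR-142-5p (-1.34 to 0.27, limma adjusted p = 0.411). Without day 28 replicate 2, which is in neither group but sets the common spread, the miR-142-3p difference was called (limma adjusted p = 0.0331, with 8.41% of tested miRNAs called lower) and that of miR-142-5p was not (0.165). With slide as a block the signs turned, to 0.44 and 0.51. Day 28 stood above day 14 by 0.27 in miR-142-3p (95% interval -0.48 to 1.03) and by 0.27 in miR-142-5p (-0.49 to 1.02), with limma adjusted p = 0.698 and 0.707. Without day 28 replicate 2 these differences were -0.13 and -0.11, so that the order of days 14 and 28 rests on that array.

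The longest interval between injured groups depended on the same array. Day 28 differed from day 1 by -0.78 in miR-142-3p (95% interval -1.53 to -0.03, limma adjusted p = 0.0949) and by -0.68 in miR-142-5p (-1.43 to 0.08, limma adjusted p = 0.139). Without replicate 2 the differences were -1.18 and -1.05, and both were called (limma adjusted p = 0.00099 and 0.00561), where 16.8% of tested miRNAs were called lower. With slide as a block and all arrays they were -0.19 and -0.15, and neither was called. With the block and without that array they were -0.82 and -0.76 (limma adjusted p = 0.0557 and 0.148).

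Among the added pairs, day 14 was below day 1 in miR-142-3p by a log2 difference of -1.05 ± 0.37 SE (limma adjusted p = 0.0375), with day 14 arrays at -0.15 to 0.26 and day 1 arrays at 0.94 to 1.29. That was the 1 pair of days called of the 12 tests over both strands, where 39.9% of all tested miRNAs were called in either direction and 22.4% lower. The calls of all miRNAs were 56 higher and 72 lower, and turned to 92 and 24 with the 75th percentile over all mouse probes, 79 and 31 with the median, 77 and 44 with quantiles and 39 and 12 without scaling. The difference was called with quantiles but not with the other 3 of these, at -0.50 and -0.65 with the percentile over all probes and the median and -0.63 without scaling. The 2 groups lay on different slides. With slide as a block the difference was 0.12 (limma adjusted p = 0.917), and with the block and without day 28 replicate 2 it was -0.51 (limma adjusted p = 0.282). miR-142-5p differed by -0.94 (limma adjusted p = 0.0588), and was called without day 28 replicate 2 (limma adjusted p = 0.00607, with 24% of tested miRNAs called lower). Day 28 against day 7 gave -0.46 in miR-142-3p and -0.27 in miR-142-5p (limma adjusted p = 0.378 and 0.635), where 33.6% of tested miRNAs were called in either direction. Without replicate 2 the miR-142-3p difference was -0.86 and called (limma adjusted p = 0.0063, with 18.4% of tested miRNAs called lower). Within slide 1, which keeps replicates 1 and 2 of day 28, both turned to 0.13 and 0.26.

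The 2 strands moved together far more than either stayed level. The log2 signal of miR-142-3p minus that of miR-142-5p had a standard deviation of 0.21 over the 16 arrays, where the strands alone had 1.15 and 1.01. Day 28 replicate 2, at 2.09, was inside the range of the other injured arrays by this measure. The size of the difference depends on the probes and is no ratio of molecules. Only its change between groups can be read.

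That change was small. The strand difference was 1.57, 1.67 and 1.89 in uninjured arteries. It was 2.05, 2.19 and 2.07 at day 1, 2.40, 2.07 and 2.09 at day 7, 2.00, 2.22 and 1.76 at day 14, and 2.04, 2.09, 1.82 and 2.06 at day 28. Injured arteries ran from 1.76 to 2.40 and uninjured ones from 1.57 to 1.89, so the groups overlapped in part. It averaged 2.07 ± 0.16 in injured arteries (SD, n = 13) and 1.71 ± 0.16 in uninjured ones (SD, n = 3), 0.36 higher after injury (exact permutation test, two-sided p = 0.00536 over 560 arrangements). Within slide 2 the difference was 0.26 and the call was lost (exact permutation p = 0.0893). With the dimmer probes it was 0.22 (exact permutation p = 0.0268). With normexp background correction it was 0.90 (exact permutation p = 0.00179, the smallest that 560 arrangements can give). That correction adds an offset of 50 units, which lowers log2 differences of dim signals most. With it the day 1 rise was 1.62 rather than 2.68 in miR-142-5p, and 2.60 rather than 3.07 in miR-142-3p. The 0.90 is therefore no separate check of the difference. The brighter probe of miR-142-5p was at 33.7 to 49.8 units in uninjured arteries and that of miR-142-3p at 109 to 158 units, and the part of the dim signal in this difference was not tested.

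**Figure D4:**
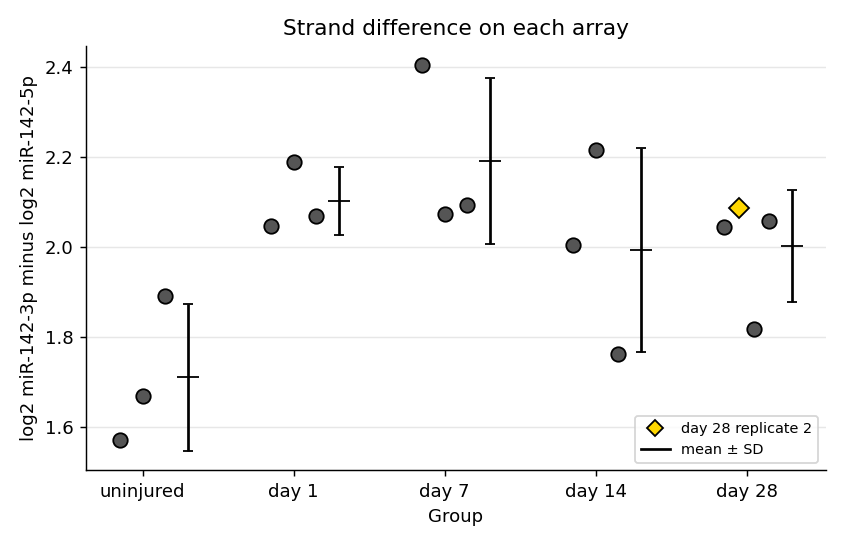
Log2 signal of miR-142-3p minus log2 signal of miR-142-5p on each array, by group, with the mean ± SD beside the points. The 3 uninjured arteries run from 1.57 to 1.89 and overlap the lowest of the injured ones, which run from 1.76 to 2.40.

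Other miRNAs known from leukocytes give the setting in which miR-142 rose. The list holds miR-223 of granulocytes and monocytes, miR-155 and miR-146a of activated leukocytes, miR-342-3p and miR-150 of lymphocytes, and miR-511 and miR-147 of macrophages. Of its 7 members, 6 were tested, since miR-147 lay at the floor on all 16 arrays. Called higher than uninjured were 3 of 6 at day 1 and 4 of 6 at days 7, 14 and 28, and none was called lower (0 of 6). Of all tested miRNAs, 19.6%, 27.4%, 20.2% and 16.8% were called higher at days 1, 7, 14 and 28, and 7.48% at day 1 with slide as a block. At day 1 only 1 of 6 was called with slide as a block (miR-223), with normexp background correction, with any of the other 4 scalings, or when either of day 1 replicates 1 and 3, or uninjured replicate 2, was left out. The median difference of the 6 was 0.60, 1.85, 2.21 and 2.08 at days 1, 7, 14 and 28, beside medians of 0.24, 0.003, 0 and 0.03 over all tested miRNAs.

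These miRNAs did not all share one course. miR-223 averaged 4.57 ± 0.07 at day 1 and 0.46 ± 0.13 in uninjured arteries (SD, n = 3 each), a log2 difference of 4.10, followed by differences of 3.18, 3.00 and 2.44 at days 7, 14 and 28. miR-155 had a difference of 0.90 at day 1, and of 2.97, 3.20 and 2.83 at days 7, 14 and 28. miR-146a had 0.60 at day 1, and 2.45, 2.51 and 2.61 later. All of these were called in the fit of all arrays. miR-342-3p was not called at day 1, at -0.18 (limma adjusted p = 0.393), and rose by 1.26, 1.91 and 1.71 at days 7, 14 and 28. miR-150 and miR-511 were called at none of the 4 days in that fit. miR-150 lay at the floor on 8 of 16 arrays, all 3 uninjured ones included, and miR-511 on 2, so changes in them are hard to see. With slide as a block and without day 28 replicate 2, miR-150 was called higher at day 28 (0.57, limma adjusted p = 0.0284). In that fit 15.6% of tested miRNAs were called higher at day 28.

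Between day 1 and day 7, 3 of the 6 were called higher at day 7, namely miR-155, miR-146a and miR-342-3p, and 1, miR-223, was called lower, where 18.7% of all tested miRNAs were called higher and 24.6% lower. The miR-142 strands were called in neither direction between these days. Whether their course differs from that of any of these miRNAs was not tested.

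**Figure D5:**
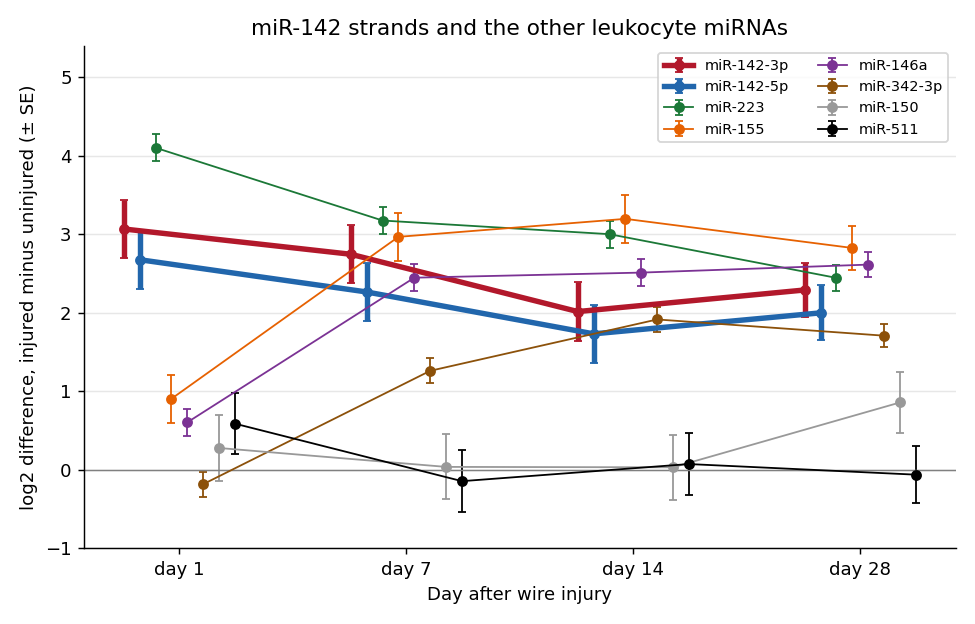
Log2 difference from uninjured arteries (± SE) at each day for the miR-142 strands (thick lines) and the 6 tested miRNAs of the leukocyte list, in the fit of all 16 arrays. At day 1 miR-223 (4.10) and the miR-142 strands (3.07 and 2.68) stand above the others, and miR-155 and miR-146a reach 2.97 and 2.45 at day 7.

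Likeness to each strand was measured as the root mean square difference of mean-centred log2 signals over the 16 arrays. The miRNAs compared share the same arrays and scaling, so likeness is a description. The strands were closest to each other among 320 other tested miRNAs, at 0.21, where the median was 1.19 for miR-142-3p and 1.08 for miR-142-5p. Next to miR-142-3p came miR-340-5p (0.45), miR-19a (0.56), miR-223 (0.58), miR-21* (0.60) and miR-221 (0.64). Next to miR-142-5p came miR-340-5p (0.43), miR-19a (0.45), miR-221 (0.53), miR-21* (0.54) and miR-340-3p (0.55). Without day 28 replicate 2, miR-340-5p was at 0.28 from miR-142-3p and 0.27 from miR-142-5p and remained the closest after the other strand. Without that array miR-221 fell out of the closest, from place 6 to 10 for miR-142-3p and from 4 to 7 for miR-142-5p, counting the other strand. miR-21* lay at the floor on all 3 uninjured arrays.

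The closest of them, miR-340-5p, is shown because it shares a run of 6 bases with miR-142-5p. It is encoded at chr11:50069720-50069741 on the plus strand, again from RefSeq for GRCm38.p6, with its own seed in capitals.
miR-340-5p: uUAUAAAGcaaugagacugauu
The run AUAAAG fills bases 2 to 7 of miR-142-5p and bases 3 to 8 of miR-340-5p, so the 7-base seeds differ. Its signals were -2.54, -3.16 and -3.14 at day 1, -3.51, -3.18 and -3.46 at day 7, -4.06, -4.32 and -4.29 at day 14, and -4.02, -4.03, -4.20 and -4.52 at day 28. In uninjured arteries only 1 of 3 arrays was well above background, at -5.49, and the others lay at the floor of -5.79. All 13 injured arrays lay above the uninjured ones, a split not counted over all tested miRNAs. Day 28 replicate 2, at -4.03, did not stand apart in this miRNA.

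Markers of other cells moved in part with the groups. The summed scaled signal of the 7 other leukocyte miRNAs was 2.69 to 2.96 in uninjured arteries, and 24.3 to 26.5, 14.4 to 18.8, 13.9 to 20.4 and 11.3 to 13.8 at days 1, 7, 14 and 28. Sums here add linear signals of different probes, so the brightest member weighs most. In injured arteries that was miR-223, with mean scaled log2 signals of 4.57, 3.64, 3.46 and 2.91 at those days. miR-155, miR-146a and miR-342-3p were instead higher at days 7, 14 and 28 than at day 1. Erythroid miRNAs (miR-451, miR-144 and miR-486), a sign of blood in the sample, were detected on all 16 arrays. Their sum was 16.3 to 42.9 in uninjured arteries, and 27.7 to 63.0, 15.1 to 27.7, 15.2 to 25.0 and 25.0 to 41.6 at those days. The erythroid sum overlapped between injured and uninjured arteries at each of the 4 days. The part of blood in the miR-142 levels was not tested.

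Of the smooth muscle markers of the artery wall, miR-143 and miR-145, both were detected on all arrays. Their sum was 3.53 to 6.37 in uninjured arteries, and 2.94 to 5.13, 1.54 to 1.80, 1.05 to 1.101 and 1.89 to 2.08 at those days. The endothelial miR-126-3p was detected on all arrays, while miR-126-5p lay at the floor on all 16. The sum of both was 9.70 to 10.3 in uninjured arteries, and 7.05 to 9.82, 12.3 to 15.4, 12.2 to 13.9 and 11.2 to 15.7 at those days. Striated muscle miRNAs (4 of 6 listed detected on at least 15 arrays, with miR-208a and miR-208b at the floor on all 16) summed to 8.01 to 12.3 in uninjured arteries, and 5.71 to 19.6, 3.90 to 7.29, 3.66 to 6.58 and 2.49 to 5.28 at those days. Neuronal miRNAs (4 listed) summed to 0.78 to 2.03 in uninjured arteries, and 1.20 to 2.56, 0.11 to 0.15, 0.07 to 0.59 and 0.35 to 0.73 at those days. The 0.07 is that of day 14 replicate 1, where 0 of the 4 were detected and all 4 lay at the floor. miR-9 of that list lay at the floor on 14 of the 16 arrays. The part of any of these cells in the miR-142 levels was not tested.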

How the data were processed

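Per the file headers, the scanner files were made by the authors with Agilent Feature Extraction 9.5.1.1, and hold 1-colour Cy3 intensity per spot. The deposited processed intensity, which is not scaled between arrays, was used, with the spot flags as given. The authors' deposited value table holds the same kind of intensity. Of its values, 100% lay within 0.1% or 0.006 units of the total gene signal, and its column medians ran from 3.81 to 16.6, so it is linear and not centred. How the spot background was estimated is not given in the sources used here. Spots marked as outliers were dropped, spots of a probe averaged, and the probe means of an array divided by their 75th percentile over 395 mouse probes well above background on all arrays (a probe counts if at least 50% of its unmarked spots do). Values under the floor (log2 -5.79) were set to it, and the brightest probe by mean signal stood for a miRNA. Tested were the 321 miRNAs for which some group had each of its arrays well above background, with a single linear model over 5 groups in limma 3.58.1 (R 4.3.3, package data.table, version 1.17.8, prior degrees of freedom 1.98), Benjamini-Hochberg adjustment per comparison and calls at an adjusted p under 0.05. Over 10 comparisons, 8 were planned and 2 were added after the data had been seen. Slide, from the headers, was tried as a block and by within-slide fits. Other alternatives changed the scaling, background, filter, floor, outlier spots, probe, signal column, moderation or set of arrays. The rule for the brightest probe was settled after the files had been read. The series design counts animals per group, so arrays are taken as animals, and their number limits the precision. Named were both strands, up to 4 leukocyte miRNAs per comparison with the smallest p, and the 5 miRNAs most alike each strand. The members and lists were chosen with earlier results of these data known. Scripts were tested on simulated data.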

Additional observations from a re-analysis of the deposited data

Results flagged for a closer look

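At day 28, the strand difference of replicate 3 (log2 1.82) lay further from its group, at 2.04 to 2.09, than a set limit for the gap within a group of 4 allows. Chance gives such a gap in about 1 of 20 groups. The fall of miR-142-3p at day 14 against day 1 (log2 -1.05) is a difference between days that passed its test, in a pair added after the data had been seen, and it did not hold with slide as a block.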

How the results depend on the processing

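Over 38 or 39 alternatives for each of the 8 differences from uninjured arteries, and 29 for the strand difference, no direction turned. Each F test, which has no direction, was run under 37 alternatives. The rises of miR-142-3p at days 7, 14 and 28, that of miR-142-5p at day 14 and both F tests were called under every alternative run. The exceptions were, for miR-142-5p with slide as a fixed block, 1.63 at day 1 and 1.22 at day 7. With replicate block and slide as blocks, calls were lost for miR-142-3p at day 1 (2.22) and for miR-142-5p at days 1 (2.01), 7 (1.60) and 28 (1.78). Within slide 2 the strand difference was 0.26 (exact permutation p = 0.0893).

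Leaving out 1 array at a time, the rises of miR-142-3p ran from 2.90 to 3.18, 2.58 to 2.86, 1.85 to 2.13 and 1.88 to 2.49 at days 1, 7, 14 and 28, and those of miR-142-5p from 2.42 to 2.81, 2.01 to 2.40, 1.47 to 1.87 and 1.62 to 2.22. The strand difference ran from 0.29 to 0.45 and stayed called. Between days, these ranges were, for miR-142-3p and miR-142-5p, -1.18 to -0.58 and -1.05 to -0.46 (day 28 against day 1), -0.39 to -0.22 and -0.53 to -0.28 (day 7 against day 1), -0.84 to -0.64 and -0.64 to -0.40 (day 14 against day 7), -0.13 to 0.47 and -0.11 to 0.49 (day 28 against day 14), -1.17 to -0.95 and -1.05 to -0.81 (day 14 against day 1) and -0.86 to -0.26 and -0.64 to -0.05 (day 28 against day 7). The fall of miR-142-3p at day 14 against day 1 was lost without any 1 of day 1 replicates 1, 2 or 3, day 7 replicate 2, or day 14 replicates 2 or 3 (adjusted p = 0.0515 to 0.112). That of miR-142-5p was called without day 28 replicate 2 or replicate 4 (adjusted p = 0.00607 and 0.0448). Without day 28 replicate 2, calls were gained as given in the report.

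Further changes between days were these. For day 14 against day 1 in miR-142-3p (-1.05), the call was lost with the 75th percentile over all mouse probes (-0.50), median scaling (-0.65), no scaling (-0.63), no filter (-1.05, adjusted p = 0.0897), the dimmer probe (-1.001), slide as a random block (-0.95), replicate block and slide as blocks (-0.21) and slide as a block without day 28 replicate 2 (-0.51), and slide as a fixed block gave 0.12. In miR-142-5p it was called with normexp (-0.80), the authors' value table (-1.04), the replicate block (-0.94), array weights (-1.01) and only the 2 groups compared (-0.94), and turned to 0.10 with slide as a fixed block. Day 14 against day 7 turned with slide as a fixed block (0.44 and 0.51 for miR-142-3p and miR-142-5p) and with both blocks (0.11 and 0.13), and was called with array weights (-0.75 and -0.73) and, for miR-142-3p, with only the 2 groups compared or without day 28 replicate 2 (-0.73). Day 28 against day 1 was called with array weights (-1.04 and -0.83) and, for miR-142-3p, with total gene signal (-1.004) and the authors' value table (-1.003). Day 28 against day 14 turned with slide as a fixed block, within slide 2 and with the block without day 28 replicate 2 (each -0.31 and -0.26), without that array alone (-0.13 and -0.11) and, for miR-142-3p, with both blocks (-0.088). The values of -0.31 and -0.26 rest on the same slide 2 arrays in each setting and are equal by construction. Day 28 against day 7 turned with slide as a fixed block and within slide 1 (0.13 and 0.26) and with both blocks (0.025 and 0.17), and was called in miR-142-3p with array weights (-0.74). The values of 0.13 and 0.26 likewise rest on the same slide 1 arrays and are equal by construction. Day 7 against day 1 turned with the 75th percentile over all mouse probes (0.16 and 0.074), median scaling (0.17 and 0.080) and no scaling (0.40 and 0.31). The cause was not tested. The array weights estimate stopped before it converged. With array weights the count of all called miRNAs rose from 33 to 130 for day 14 against day 7. For day 28 it rose from 110 to 171 against day 1 and from 108 to 140 against day 7. For day 14 against day 1 it rose from 128 to 164. The calls gained with array weights were therefore not limited to the miR-142 strands.

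Replicate numbers are not stated to pair the arrays. Same-numbered arrays of different groups (30 pairs) had correlations of their deviations from -0.45 to 0.56 (median -0.06). Of the 16 arrays, 4 correlated best with their own number. With 3 or 4 arrays a group, these values cannot decide whether the numbers pair the arrays. The replicate block alone changed no call but that of miR-142-5p at day 14 against day 1. The count of all called miRNAs at days 1, 7, 14 and 28 against uninjured was 104, 160, 126 and 84, with lowest and highest counts of 10 and 198, 45 and 200, 72 and 179, and 21 and 107 over 36 alternatives. The groups held 3 or 4 arrays each, and uninjured signals of the brighter miR-142-5p probe were as low as 33.7 units.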
